A study of Mus musculus with 4 samples.

Results

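The collagens, laminins and other stromal matrix genes were taken from the gene names in the array files, as every gene probe named Col with a chain number, Lama, Lamb or Lamc with a number, or named *Fn1*, *Eln*, *Fbn1*, *Fbln1*, *Fbln2*, *Dcn*, *Lum*, *Dpt*, *Sparc*, *Tnc*, *Postn*, *Pdgfra* or *Pdgfrb*. The choice went by name and by no threshold on a measured value. The names gave 135 of 41174 probes, for 69 of 27089 genes on the array. One of these, *Col4a3bp* (4 probes), fits the spelling only, since it encodes a ceramide transfer protein, and it is described on its own, which leaves 131 probes for 68 matrix genes. The files of the 2 experiments list different versions of the array design. Of the 135 probes, 133 carry such a name in the files of the colon experiment and 123 in those of the sort, and a probe named in either was kept.

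The data come from 4 whole mouse genome arrays made by Agilent, read in 2 colors, and all mice were C57BL/6. There were 2 experiments, each with the dyes reversed on its second array. The first compared the distal colon of *Rspo3* KO mice (*Myh11CreErt2/Rspo3 fl/fl*) with that of their *Myh11CreErt2/Rspo3 +/+* littermates (labelled Rspo3++), 2 weeks after tamoxifen, to ask what loss of R-spondin 3 from the stroma does to the colon. Each array held 1 KO mouse against 1 control mouse, which gives 2 pairs. The second compared Axin2+ (tdTomato positive) with Axin2- (tdTomato negative) ESA+ epithelial cells of *Axin2CreErt2/Rosa26-tdTomato* mice, taken 24 h after tamoxifen from a pool of 3 mice, to ask how Wnt-responsive cells differ from their neighbours. Both arrays of the sort held the same pools of RNA and count as 1 replicate. The mice were 6 to 8 weeks old when experiments began, and tamoxifen was given at 4 mg per 25 g of body weight. Controls of the first experiment carried the same Cre. It is driven by *Myh11*, a gene of smooth muscle and myofibroblasts, so that the recombined cells belong to the stroma that also makes matrix. The 2 probes of *Rspo3* were not well above background on both colon arrays (the brighter probe had log2 ratios of 0.10 and 0.17), and so did not check the KO label. The *Axin2* probe had log2 ratios of 1.35 and 1.30 in the direction of the sort. All ratios below are log2 ratios of KO over control, or of Axin2+ over Axin2- cells.

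Extracellular matrix is built of a few families of large secreted proteins. Fibrillar collagens give connective tissue its strength, type IV collagen and the laminins form the basement membrane on which the crypt epithelium sits, elastin, fibrillin and the fibulins make elastic fibres, and small proteoglycans such as decorin bind and space the collagen fibrils. In the gut most of these genes are transcribed by fibroblasts, smooth muscle and vessel walls, while epithelial cells contribute laminin chains and other basement membrane proteins. Platelet-derived growth factor receptors mark the cells that make much of this matrix.

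A collagen chain is recognised in its coding sequence by a glycine codon that returns after every pair of other codons, since only glycine fits inside the triple helix. Of all 41174 probe sequences, 3 held a stop-free reading frame in which a glycine codon (GGN) returned in this way from one end to the other, and all 3 belonged to collagen genes, out of 87 collagen probes. They are shown because the *Col5a1* and *Col11a2* probes decide whether these fibrillar collagens counted as measured in the sorted cells. Each is 60 bases long, is written 5′ to 3′ as listed in the array files, which give it no position in the genome, and has the glycine codons in capitals.
*Col5a1* probe: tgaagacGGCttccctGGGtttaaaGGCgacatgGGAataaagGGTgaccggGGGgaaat
*Col11a2* probe: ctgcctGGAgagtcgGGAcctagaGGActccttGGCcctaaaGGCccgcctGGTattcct
*Col5a3* probe: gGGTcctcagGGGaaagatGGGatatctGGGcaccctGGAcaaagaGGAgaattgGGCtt

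Most matrix genes were read in colon tissue, and far fewer in sorted epithelium. A gene was counted as measured when the scanner software marked one of its probes as well above background, in either channel, on each array of the experiment. By this rule 57 of the 68 genes were measured in distal colon and 34 in the sorted cells, 32 of them in both and 9 in neither. Per channel, the share of the 43379 gene spots so marked lay between 53.1% and 60.3%. Of the 57 genes measured in colon, 23 (40.4%) had no probe well above background in any channel of the sorted cells, against 9.09% of all 15302 genes measured in colon. On the same probe, the mean log2 intensity was lower on the sorted cell arrays by a median of 3.24 for the matrix genes and of 1.16 for all genes measured in colon. The arrays of each experiment were normalised separately and come from different mice, so that these intensity differences are descriptions without a test.

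The genes that fell furthest towards background were those of fibroblast matrix. *Col1a1*, the alpha 1 chain of type I collagen, had a mean log2 intensity of 14.58 on the colon arrays and of 6.05 on the sorted cell arrays, where probes not above background had a median of 6.03. *Postn* (periostin) went from 13.82 to 5.99, *Lum* (lumican) from 13.30 to 6.06 and *Sparc* (osteonectin) from 12.69 to 6.17, none of them above background in the sort. *Col1a2* went from 15.14 to 6.89 and *Dcn* (decorin) from 15.19 to 6.80, and both remained above background in all 4 sorted channels. The genes that kept a clear signal in sorted cells were others. Laminin chains *Lamb3* (10.56 in colon and 9.14 in sorted cells) and *Lamb2* (10.17 and 8.38) were among them, as were *Col16a1* (12.64 and 9.99), a collagen that lies on the surface of larger fibrils, and *Col8a1* (11.78 and 9.69), a short network-forming collagen. *Col4a4*, a chain of type IV collagen, was the one matrix gene of the 57 whose colon probe was brighter in sorted cells (8.71) than in colon (8.02). *Pdgfra* fell to background (9.98 and 5.97), and *Pdgfrb*, which pericytes and other mesenchymal cells carry, did not (11.12 and 7.86).

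**Figure D1:**
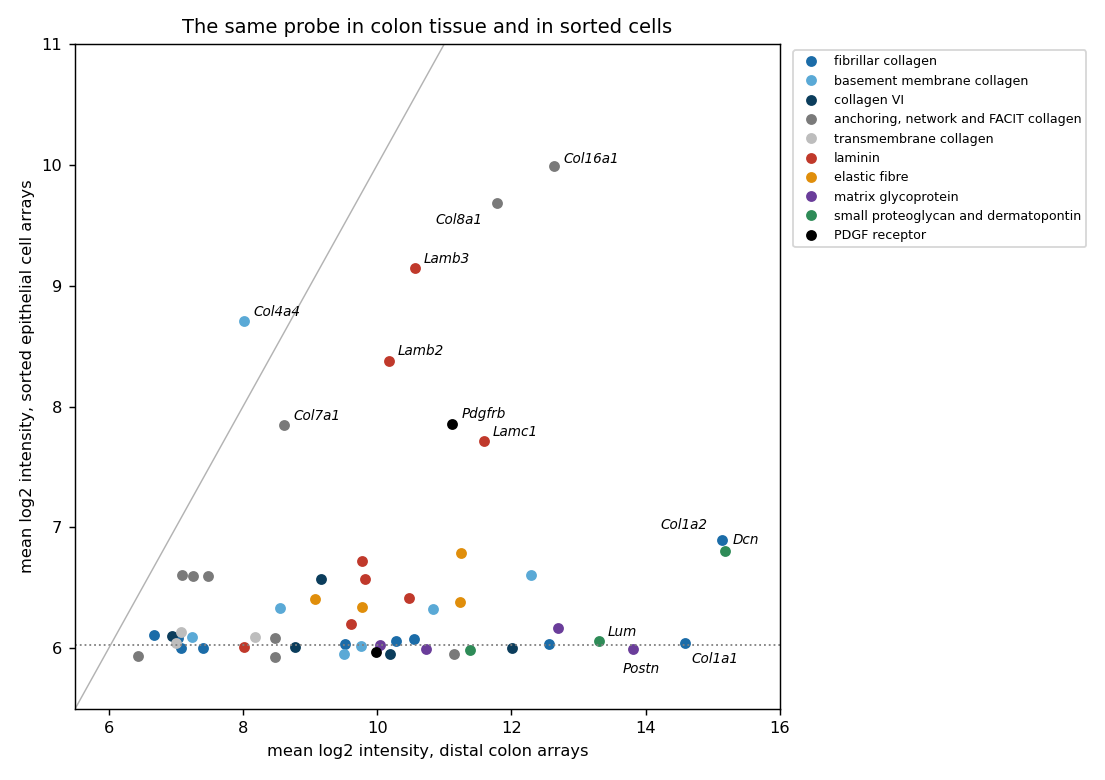
Mean log2 intensity of the same probe on the 2 colon arrays (horizontal) and on the 2 sorted cell arrays (vertical), 1 point per gene for 56 of the 57 matrix genes measured in colon, coloured by role. The grey line marks equal values and the dotted line the median (6.03) of probes not above background in the sort. *Col1a1*, *Postn* and *Lum* lie on the dotted line, whereas *Lamb3*, *Col16a1* and *Col8a1* stand well above it.

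The *Col5a1* and *Col11a2* repeat probes were dim and read about alike in colon and sorted cells. This was not particular to the repeat. Dim probes without it did so too, such as 1 of *Col2a1* (6.67 in colon and 6.70 in sorted cells) and 1 of *Col4a6* (7.22 and 6.91). The *Col5a1* probe shown above had a mean log2 intensity of 7.01 in colon and 6.80 in sorted cells, a difference of 0.21, and was above background in every sorted channel. The other *Col5a1* probe, on chromosome 2 of mm9 from 27892892 to 27892951, went from 12.55 to 6.04 and was above background in no sorted channel. The value of *Col5a1* in the sort (-0.23 and -0.29) therefore came from the repeat probe alone. The *Col11a2* repeat probe read 6.41 in colon and 6.34 in sorted cells, a difference of 0.07. The other *Col11a2* probe was dim as well. It went from 6.67 to 6.11 and was above background in no sorted channel. The value of *Col11a2* in the sort (-0.09 and 0.06) thus came from the repeat probe too. The *Col5a3* repeat probe was above background on no array. Whether a repeat probe reads its own gene alone was not tested.

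In the colon of *Rspo3* KO mice no matrix gene changed past the test. With limma's moderated test of the 2 pairs against 0 and Benjamini-Hochberg adjustment over all 15302 genes, 0 of the 57 measured members were called, beside 34 genes (0.222%) over the whole table, and the adjusted p of every member was 1. Without adjustment, 2 members had a limma p under 0.05, as did 700 of all genes. No member passed 1.5-fold on the mean with the same direction in both pairs, beside 1.84% of all genes higher and 2.46% lower. The mean log2 ratios of the members ran from -0.49 (*Col7a1*) to 0.57 (*Fn1*), where 1.5-fold is 0.58, and the SD between pairs had a median of 0.32.

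The members nonetheless lay more often above 0 than below it. Their median log2 ratio was 0.00 in pair 1 and 0.31 in pair 2 (all genes 0.00 and -0.02), so that the shift rested on pair 2. Of the 57, 29 were higher in the KO mouse of pair 1 and 44 in that of pair 2. All 15302 genes gave 7603 and 7153. In both pairs 21 members were higher in the KO mouse, 36.8% beside 20.3% of all genes, and 5 were lower, 8.77% beside 23.8%. Counts over both pairs carry the shift of pair 2 and do not show that the mice agreed. The members share cells and 4 mice, and the counts have no test of their own. The labels give the samples as distal colon, while the study's methods also call them epithelium in one place. Markers of fibroblasts, smooth muscle and vessels were above background on the colon arrays. In RNA of mixed cells, fewer cells of a type and less RNA per cell cannot be told apart, and the same holds for more. Genes of smooth muscle lay on the same side, with a median of 0.27 in pair 1 and 0.21 in pair 2 over 7 measured markers, 5 of them higher in both pairs, and their summed level was 138900 and 141400 in the KO mice and 114500 and 135500 in the control mice. The 9 measured fibroblast markers outside the matrix list had medians of 0.05 and -0.07, with summed levels of 30740 and 32550 in KO and of 29300 and 31010 in control mice. Markers of epithelium (5 measured) had medians of -0.07 and -0.15. The 6 measured immune markers had medians of -0.51 and -0.17. The summed level of all 8 listed immune markers, measured or not, was 8748 and 8559 in KO and 13710 and 10710 in control mice. The 6 measured ones went both ways, 3 lower and 2 higher in both pairs. *Cd79b* (-2.49 and -1.29) and *Cd52* (-0.79 and -0.43) were past 1.5-fold lower, and *Lyz2* (0.62 and 0.42) and *Csf1r* (0.17 and 0.0084) were higher. All 8 endothelial markers (medians of 0.01 and 0.14), 5 pericyte markers (-0.26 and 0.55) and 4 glia markers (0.03 and 0.28) were measured. Of the pericyte markers 2 were higher and 1 was lower in both pairs, with *Abcc9* past 1.5-fold higher (0.50 and 0.88, limma adjusted p 0.804). What part the cells behind these markers had in the matrix ratios was not tested.

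**Figure D2:**
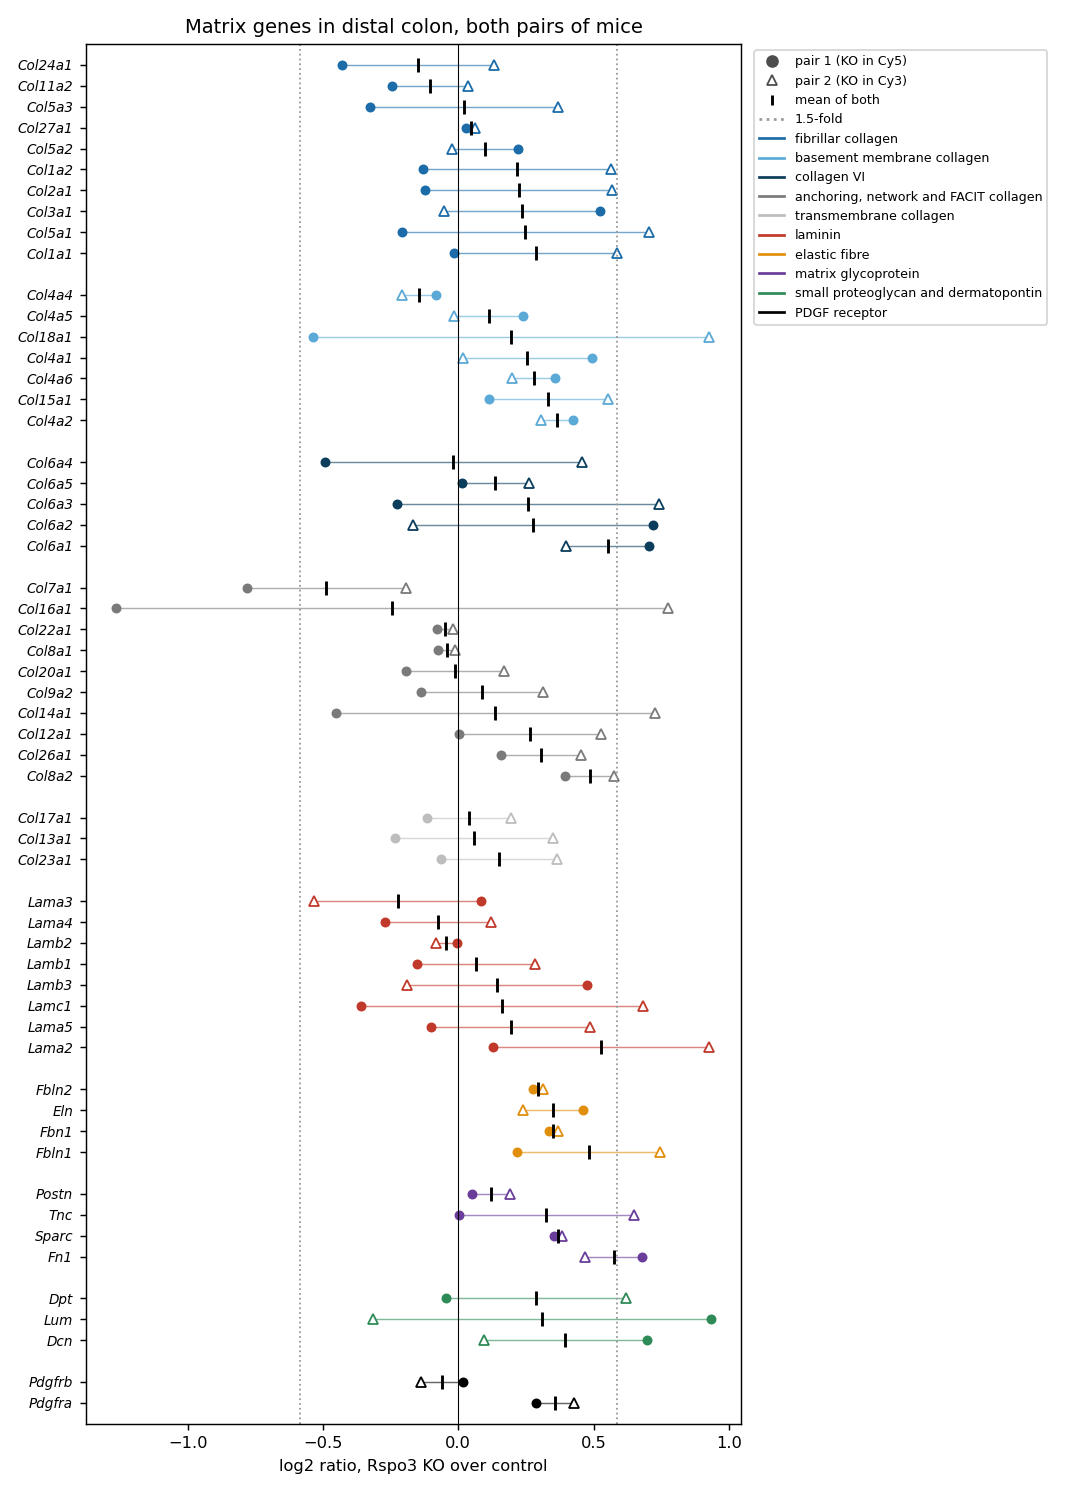
Log2 ratio of *Rspo3* KO over control for 56 of the 57 measured matrix genes, grouped by role, in pair 1 (filled circles) and pair 2 (open triangles), with the mean as a bar. Dotted lines mark 1.5-fold. No mean lies past them, elastic fibre genes and glycoproteins lie right of 0 in both pairs, and most fibrillar collagens lie on opposite sides of 0 in the 2 pairs.

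The glycoproteins and elastic fibre genes were the groups in which every measured member was higher in both KO mice. Over all genes the ratios of the 2 pairs were hardly correlated (r = 0.03), and 8554 of 15302 genes split between the pairs. The same sign in both pairs therefore says little about a single gene, here and below. *Fn1* encodes fibronectin, which links collagen to integrins. Its log2 level (after scaling the intensities of both colon arrays alike) was 11.10 and 10.94 in the KO mice and 10.42 and 10.47 in the control mice. The log2 ratio of *Fn1* was 0.68 in pair 1 and 0.47 in pair 2 (mean 0.57 ± 0.15, SD, n = 2, or 1.49-fold). The limma p was 0.0389 before and 1 after adjustment. Its other 2 measured probes gave means of 0.35 and 0.32, and the second of these split between the pairs (0.81 and -0.17). *Sparc*, a collagen-binding glycoprotein, had levels of 12.60 and 13.18 in KO and 12.24 and 12.79 in control mice, which overlap, with ratios of 0.35 and 0.38. A second *Sparc* probe, on chromosome 11 of mm9 from 55208013 to 55208072, gave 0.72 and 0.86, past 1.5-fold in both pairs. It was not the probe that stood for the gene, which is the one of highest mean intensity. *Tnc* (tenascin C) had ratios of 0.0045 and 0.65, and *Postn* of 0.05 and 0.19, so that both lay at 0 in pair 1 within the spread between pairs.

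Among the elastic fibre genes, *Fbln1* (fibulin 1) had the highest mean ratio. Its levels were 11.49 in both KO mice and 11.27 and 10.75 in the control mice, and its ratios were 0.22 and 0.75. The other 3 lay close together in both pairs. *Fbn1* (fibrillin 1, the core of microfibrils) had ratios of 0.34 and 0.37, *Fbln2* of 0.28 and 0.31, and *Eln* (elastin) of 0.46 and 0.24. A second, dimmer *Fbn1* probe split between the pairs (-0.04 and 0.46). None of these 8 genes passed the test, and the lowest adjusted p among them was 1.

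The fibrillar collagens gave no common direction. Of the 11 genes 10 were measured, 9 of them with opposite signs in the 2 pairs, and the group's median was -0.13 in pair 1 and 0.25 in pair 2. *Col1a2*, whose product joins that of *Col1a1* in type I collagen, had levels of 15.05 and 15.44 in KO and 15.18 and 14.88 in control mice, with ratios of -0.13 and 0.56. *Col1a1* had levels of 14.46 and 14.98 in KO and 14.47 and 14.39 in control mice, and ratios of -0.01 and 0.59. In both genes the KO mouse of pair 2 was the highest of 4. *Col5a1*, which helps to start type I fibrils, had ratios of -0.21 and 0.70. *Col3a1*, the main partner of type I collagen in gut wall, was hardly measured, since the spot of its main probe was marked as an outlier on array 2 (the ratio of that probe in pair 1 was 0.17), and a probe with a mean log2 intensity of 7.08 gave 0.52 and -0.05.

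In the basement membrane group 7 of 8 type IV, XV and XVIII collagen genes were measured, 4 of them higher in both pairs and 1 lower. *Col4a1* and *Col4a2*, the chains present in nearly all basement membranes, had ratios of 0.50 and 0.02 and of 0.43 and 0.31. Both genes had a second probe, and those gave 0.61 and 0.22 for *Col4a1* and 0.45 and 0.22 for *Col4a2*, higher in both pairs again. *Col18a1*, the source of endostatin, split between pairs (-0.54 and 0.93). Of type VI collagen, a microfibril around cells, 5 of 6 chains were measured. *Col6a1* had levels of 10.32 and 10.62 in KO and 9.62 and 10.22 in control mice, with ratios of 0.71 and 0.40 (mean 0.55 ± 0.22, SD, n = 2). Its limma p was 0.0472 before and 1 after adjustment. *Col6a3*, a chain of the same microfibril, had ratios of -0.22 and 0.74.

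The remaining collagens went both ways. Of 15 anchoring, network and fibril-associated collagens 10 were measured, 3 higher in both pairs and 3 lower. *Col7a1*, the anchoring fibril collagen that ties basement membranes to the tissue below, had the lowest mean of all members, with levels of 8.60 and 8.16 in KO and 9.38 and 8.36 in control mice, which overlap, and ratios of -0.78 and -0.19. *Col16a1* had the widest split of all, at -1.27 and 0.78, so that its mean of -0.25 describes neither pair. *Col8a2* had ratios of 0.39 and 0.58. *Col26a1* was above background in no control channel and in both KO channels, at 6.58 against 6.28 on the mean log2 level. Its ratios were 0.16 and 0.45 (limma adjusted p 1). It counted as measured through its KO channels alone, so that its direction was tied to the filter and is no result. The 3 measured transmembrane collagens all split, *Col13a1* at -0.23 and 0.35.

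Laminins were split as well. Of 11 chains 9 were measured, 7 with opposite signs in the pairs. *Lama2*, the alpha chain of muscle laminin, was the exception above 0, with ratios of 0.13 and 0.93, and *Lamb2* the one below it (-0.0049 and -0.08). A second, dimmer *Lama2* probe split between the pairs as well (-0.15 and 0.55). *Lamc1* had ratios of -0.36 and 0.68, and *Lamb3* had ratios of 0.48 and -0.19. Small proteoglycans were measured in full. *Dcn* had levels of 15.53 and 15.24 in KO and 14.84 and 15.14 in control mice, and ratios of 0.70 and 0.10. *Lum* split (0.94 and -0.32), and so did *Dpt*, which encodes dermatopontin (-0.05 and 0.62). Of the growth factor receptors, *Pdgfra*, which gut fibroblasts carry, had levels of 10.12 and 10.20 in KO and 9.83 and 9.77 in control mice. Its ratios were 0.29 and 0.43 (mean 0.36 ± 0.10, SD, n = 2, limma adjusted p 1). *Pdgfrb* had ratios of 0.02 and -0.14.

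Where the pairs disagreed, they did so more often in one direction. KO RNA was in Cy5 in pair 1 and in Cy3 in pair 2, and 23 of the 57 members (40.4%, beside 26.5% of all genes) were lower in the KO mouse of pair 1 and higher in that of pair 2, that is, brighter in Cy3 on both arrays. The reverse held for 8 members (14%, beside 29.4%). These counts show the higher ratios of pair 2 described above in another form and are not a separate result. Since each pair was hybridised in 1 orientation, dye and pair cannot be told apart on these arrays. The difference between the 2 arrays, halved and without its sign, had a median of 0.23 for the members and 0.17 for all genes in colon, and of 0.06 for both on the sorted cell arrays.

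Probes of the same gene also disagreed. Among the 19 members with several measured probes, 6 (31.6%) had probes whose mean ratios were of opposite sign, beside 36.6% of 5329 such genes over the whole array. *Col1a1* had such a change of sign within pairs. Its brightest probe, on chromosome 11 of mm9 from 94813075 to 94813134, gave -0.01 and 0.59, and the probe from 94812052 to 94812111, 1 of the 2 others, gave 0.75 and -0.22, so that the means (0.29 and 0.26) were alike while each pair alone was not. *Col6a2* changed sign more widely, with 0.72 and -0.17 on one probe and -0.44 and 0.43 on the other. *Col2a1*, the collagen of cartilage, had 2 measured probes that share 40 of their 60 bases. The first gave -0.12 and 0.57, and its mean log2 intensity was 10.28 in colon and 6.06 in sorted cells. The second gave -0.01 and -0.03, and its intensity was 6.67 in colon and 6.70 in sorted cells, so that neither the ratios nor the difference between tissues were shared. Probes of *Col24a1* (means of -0.15 and 0.30), *Col4a6* (0.28 and -0.03), *Col8a1* (-0.04 and 0.23) and *Lama4* (means between -0.08 and 0.00 over 3 probes) were also of opposite sign. *Col4a2*, *Fbln1* and *Sparc* were alike in sign on every probe in both pairs.

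**Figure D3:**
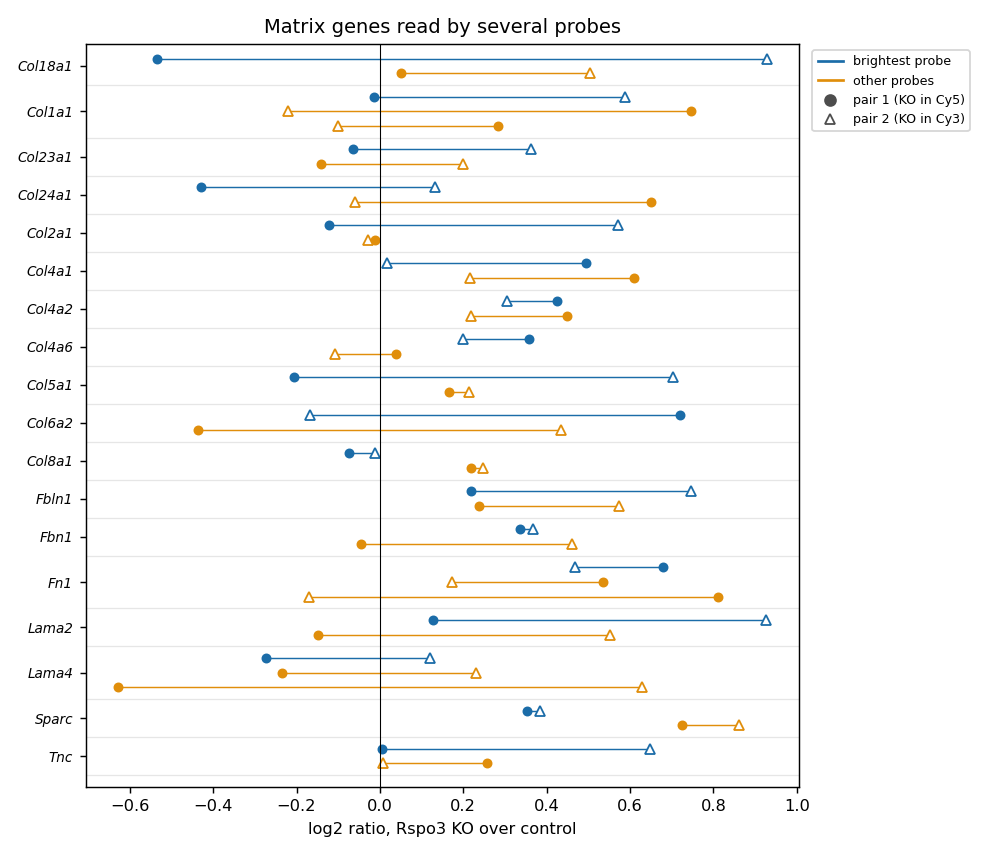
Log2 ratio of *Rspo3* KO over control for 18 of the 19 matrix genes with several measured probes, 1 line per probe, with pair 1 as a filled circle and pair 2 as an open triangle. The blue line is the brightest probe, which stands for the gene. For *Col1a1*, *Col6a2* and *Col24a1* circle and triangle change sides between probes, while those of *Sparc*, *Col4a2* and *Fbln1* stay right of 0.

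Genes that process, cut or bind the matrix were no more often called. None of the 44 measured genes of these 3 lists passed limma's test. Of 19 measured genes of collagen processing and crosslinking 8 were higher in both pairs and 1 was lower, with medians of 0.08 and 0.16. *Loxl2*, a lysyl oxidase that crosslinks collagen, was past 1.5-fold on the mean (1.03 and 0.16, limma adjusted p 1). Of 14 proteases and inhibitors 4 were higher and 3 lower in both pairs. *Timp3*, an inhibitor of metalloproteinases that itself binds to matrix, had ratios of 1.25 and 0.97, a mean of 1.11 ± 0.20 (SD, n = 2) with a limma adjusted p of 0.238. Of 11 integrins and other receptors for collagen and laminin 6 were higher and 1 was lower in both pairs, none past 1.5-fold.

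In the sorted cells, the 9 matrix genes with a clear signal were laminins, collagens and *Pdgfrb*, and 2 of them were lower in Axin2+ cells past 1.5-fold, *Lamb3* and *Col8a1*. With 1 replicate there is no test, and a difference counts here when its mean is past 1.5-fold and both dye orientations go the same way. No matrix gene was higher by this measure, beside 7.84% of all 15784 genes, and 2 of 34 were lower, beside 6.96%. In both orientations 7 members (20.6%, beside 40.9% of all genes) were higher and 23 (67.6%, beside 41.8%) lower in Axin2+ cells, with medians of -0.12 and -0.13 (all genes 0.02 and -0.03). Of the 34, 25 had a mean log2 intensity within 1 unit of the background median, where ratios are small by construction because 50 was added to each signal. Of the 9 above that 3 were higher and 6 lower in both orientations, beside 4946 higher and 4656 lower of 11293 such genes over the whole array.

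The laminin chains divided into those that were lower and those that were higher in Axin2+ cells. *Lamb3* encodes the beta 3 chain of the laminin by which epithelial cells hold on to the basement membrane. Its log2 level was 8.40 and 8.60 in Axin2+ cells and 9.59 and 9.98 in Axin2- cells, on the arrays of the same pools. Its ratio was -1.19 and -1.38, or 2.43-fold lower on the mean. *Lama3*, the alpha 3 chain of the same laminin, was lower too, by less. It had ratios of -0.33 and -0.21, and its other probe, the brighter one in colon, gave -0.75 and -0.97 but was above background in Axin2+ cells on 1 of 2 arrays. *Lamb2* and *Lamc1* went the other way. *Lamb2* had levels of 8.83 and 8.48 in Axin2+ and 8.17 and 8.05 in Axin2- cells, with ratios of 0.66 and 0.44. *Lamc1*, the gamma chain of most laminins, had levels of 7.98 and 8.0045 in Axin2+ and 7.41 and 7.46 in Axin2- cells, with ratios of 0.57 and 0.55, just inside 1.5-fold. *Lama5*, the alpha chain that joins these 2 in adult epithelial basement membranes, was higher in both orientations but close to background (0.08 and 0.13). *Lamb1*, another beta chain, was lower in both orientations (-0.30 and -0.07) and *Lama4* split (0.10 and -0.20), and both were near background as well. This grouping of chains by trimer was made after their values were seen.

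**Figure D4:**
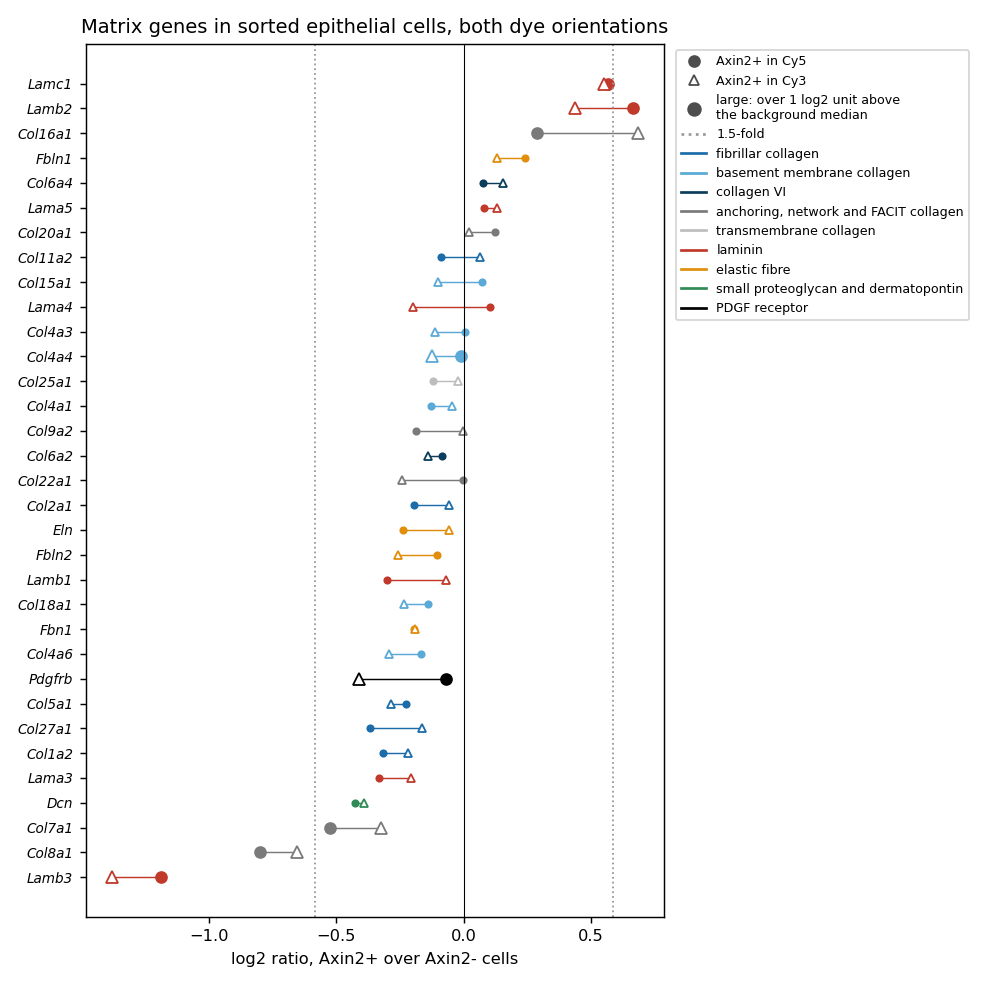
Log2 ratio of Axin2+ over Axin2- cells for 33 of the 34 matrix genes measured in sorted cells, with Axin2+ RNA in Cy5 (filled circles) and in Cy3 (open triangles). Large symbols mark the 8 genes drawn that lie over 1 log2 unit above the background median, and dotted lines mark 1.5-fold. *Lamb3* and *Col8a1* lie left of the lower line in both orientations, and *Lamc1*, *Lamb2* and *Col16a1* are the rightmost genes.

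Of the collagens, *Col8a1* was the one past 1.5-fold. The probe that stood for it maps to chromosome 16 (mm9, 57627033 to 57627092) and had levels of 9.26 and 9.38 in Axin2+ and 10.06 and 10.04 in Axin2- cells and ratios of -0.80 and -0.65, or 1.66-fold lower on the mean. A second probe, from 57624471 to 57624530, gave -0.56 and -0.37. In colon the same 2 probes had ratios of -0.07 and -0.01 and of 0.22 and 0.25. *Col7a1* was lower too, at -0.53 and -0.32, and *Col16a1* was higher at 0.29 and 0.68. *Col4a4* hardly differed (-0.01 and -0.13). *Col4a1* was near background here (-0.13 and -0.05), as were *Col25a1* (-0.12 and -0.02), the one transmembrane collagen measured, and *Col6a4* (0.07 and 0.16), a chain of type VI collagen.

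Several members known from fibroblasts and pericytes were read in the sort, most of them near background. *Dcn* had levels of 6.46 and 6.72 in Axin2+ and 6.89 and 7.11 in Axin2- cells, with ratios of -0.43 and -0.39. Its mean of -0.41 became -0.64 with an added 16 in place of 50 and -1.03 with the scanner software's ratios, past 1.5-fold in both settings. *Col1a2* had levels of 6.78 and 6.75 against 7.09 and 6.96, and ratios of -0.32 and -0.22. *Pdgfrb*, which was clear of background, had ratios of -0.07 and -0.41. *Fbln1* was higher in Axin2+ cells, at 0.24 and 0.13. No matrix glycoprotein was measured. Markers of non-epithelial cells that the ESA gate should remove were read beside them. Of 10 fibroblast markers outside the list 6 were above background in some channel, with *Cd34*, *Mfap5*, *Twist1* and *Twist2* in none. The summed level of all 10 was 2546 and 2750 in Axin2+ and 8581 and 8752 in Axin2- cells. Most of that sum was *Gsn*, which many cell types express (-2.08 and -1.99), and *Vim* was lower as well (-1.01 and -0.91). Of 8 immune markers all were above background, with sums of 2503 and 2536 in Axin2+ and 2889 and 2969 in Axin2- cells, and *Lyz2* (-1.62 and -1.58) and *Cd52* (-1.35 and -1.14) were past 1.5-fold. Smooth muscle markers (6 of 8 above background, *Des* and *Myh11* not) summed to 9166 and 7453 in Axin2+ and 7068 and 7090 in Axin2- cells, and *Mylk* was past 1.5-fold lower (-0.94 and -1.03). *Acta2*, the brightest measured one (mean log2 intensity 12.40), was higher in both orientations (0.56 and 0.25). Endothelial markers were above background for 3 of 8, without *Pecam1* and *Cdh5*, pericyte markers for 3 of 5, without *Rgs5*, and glia markers for 2 of 4, without *Sox10*. Epithelial markers were all measured and summed to 207800 and 188100 in Axin2+ and 252000 and 247500 in Axin2- cells, with *Krt8* (-0.64 and -1.03) and *Krt19* (-0.58 and -0.77) past 1.5-fold lower. In both orientations 5 of them were lower and 2 higher, among these *Krt18* (0.45 and 0.33). The part of other cells in the low matrix signals was not tested.

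Of the genes that act on matrix, *Itga6*, the integrin chain by which epithelial cells bind laminin, was the one receptor past 1.5-fold, higher in Axin2+ cells (1.11 and 1.21). The other 10 measured receptors had mean ratios between -0.54 and 0.38. Of 8 measured proteases and inhibitors *Mmp15*, a membrane-bound metalloproteinase, was lower (-0.55 and -0.72), and of 11 measured genes of collagen processing 1 was higher and 6 were lower in both orientations, none past 1.5-fold.

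*Col4a3bp*, left out of every count above, had ratios of 0.67 and -0.70 in *Rspo3* KO colon on its brightest probe. In sorted cells that probe gave 1.0046 and 0.64, higher in Axin2+ cells past 1.5-fold, and its other 2 measured probes gave 0.52 and 0.49 and 0.25 and 0.27.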

How the data were processed

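The labels and the paper's methods gave the groups, and differ on how colon RNA was extracted and whether it came from colon or its epithelium. RNA was amplified from the poly(A) tail and hybridised to dual-color arrays. For every spot the authors deposited mean signal and background intensity of each dye and a log10 ratio (Cy5 over Cy3) from Agilent Feature Extraction (version 11.5.1.1). The series table the authors deposited repeats that log10 ratio. Deposited p-values of the software's error model were not used. Positions of probes were read from the files (mm9), and exon or UTR annotation was not used here.

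Background was corrected with limma (version 3.58.1, R version 4.3.3) by normexp with an offset of 50, with background outlier spots (66 and 6 on the colon arrays) kept out of the fit. Ratios were normalised by loess within arrays, outlier and control spots were left out, and ratios were turned to KO over control or Axin2+ over Axin2-. Log2 levels per channel were scaled by quantiles of mean intensity within an experiment. Spots of a probe were averaged and the brightest measured probe stood for a gene. Of the probes, 28473 were named by accession, 5512 by symbol and 356 by synonym from RefSeq (GRCm38.p6), and 6833 kept the array's name, as members did.

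The KO ratios were tested against 0 with limma (1 residual and 6.67 prior degrees of freedom) and Benjamini-Hochberg adjustment over 15302 genes at 0.05. The number of arrays limits the precision. The members and lists were chosen with earlier results of these data known. Genes named by rule were members past a threshold, the brightest member of each role group, both PDGF receptors and genes whose probes disagreed. Other members are named to describe their group and were chosen after their values were seen. The alternatives tried were the software's ratios, the series table, no background correction, an offset of 16, a background fit on all spots, median centring, no dim filter, a filter on both channels, averaging a gene's probes, leaving out each array, a term for dye, a 2-fold threshold and, added later, *Col4a3bp* counted as a member. The values of 1 member, which stays in every count, are not reported here.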

Additional observations from a re-analysis of the deposited data

How the results depend on the processing

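No member was called by limma in *Rspo3* KO colon under any alternative that kept both pairs (1 pair alone has no test), and the median ratio of the members there stayed above 0, between 0.14 and 0.25, and between 0.00 and 0.31 with 1 array left out (0.31 without pair 1). The number of members past 1.5-fold was less steady. In KO colon it was 5 higher (*Col26a1*, *Col6a5*, *Col8a2*, *Fn1* and *Lama2*) and 1 lower (*Col7a1*) with the software's ratios or the series table and 1 higher (*Lama2*) with an offset of 16, where the reported value is 0, and with 1 array left out between 5 and 12 higher (12 without pair 1, 5 without pair 2) and between 0 and 2 lower (2 without pair 2). In Axin2+ cells it was 3 higher and 13 lower with the software's ratios or the series table, where the reported values are 0 and 2, then 2 higher (*Lamb2* and *Lamc1*) with no background correction or an offset of 16 (which also gave 3 lower, with *Dcn*), 1 higher with *Col4a3bp* counted, 1 higher with either array left out (*Col16a1* without array 1, *Lamb2* without array 2, and 2 lower each time), and 1 lower with median centring or a 2-fold threshold (*Lamb3* both times). The Axin2 median of -0.12 became -0.43 with the software's ratios or the series table, -0.15 with no background correction, -0.21 with an offset of 16, -0.0475 with no dim filter, -0.14 with a filter on both channels, and between -0.13 and -0.12 with 1 array left out. The cause of these shifts was not tested. Over single members and the alternatives that kept both arrays, 19 of 511 values in colon and 3 of 298 in sorted cells changed sign. With 1 colon array left out, each of the 31 members split between pairs changes sign once. Arrays left out included, *Lamb3* in Axin2+ cells lay between -1.48 and -1.19 and *Col8a1* between -0.80 and -0.60. No paired analysis was possible because each ratio already compares 1 pair of mice or pools, which leaves nothing to block. Signal near background limits 25 of the 34 values in sorted cells, and 2 pairs of mice limit those in colon.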
